A study of Mus musculus with 8 samples.

Results

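The genes described here carry the myostatin, activin and insulin-like growth factor (IGF) signals that set the size of skeletal muscle fibres. They were chosen by name, as 10 genes: Mstn, Fst, Acvr2b, Inhbb, Smad3, Igf1, Igf1r, Igfbp5, Irs1 and Irs2. Each was matched to a probe set annotated to exactly 1 gene symbol, and 8 of the 10 were matched, out of 14860 genes measured in all. Inhbb and Irs2 had no such probe set and were not analysed here. Each of the 8 genes was read by 1 probe set.

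Male C57BL/6 mice, 8 weeks old, gave RNA of the tibialis anterior, the muscle at the front of the shin. In each of 4 experiments the right muscle received 25 µg of pCMV-ATF4-FLAG, a plasmid in which the viral CMV promoter drives tagged mouse ATF4, and the left muscle received 25 µg of empty pcDNA3, both by electroporation. RNA was taken from nonfasting mice after 11 days and measured on 8 exon arrays, 4 from ATF4 muscles and 4 from empty-vector muscles, and whether each experiment used 1 mouse or pooled several is not stated in the labels. Whole muscle was used, so fewer cells of a type and less RNA per cell cannot be told apart, and fibres that took up no plasmid are included. In all 4 experiments ATF4 was in the right muscle and the empty vector in the left. Side, and any other difference between the plasmids, thus cannot be told apart from ATF4. ATF4 is a transcription factor of the stress response.

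All levels are log2 signals as deposited, and all differences are ATF4 minus empty vector on that scale, where 1 unit is a doubling. The tissue label was checked against markers of skeletal muscle fibres. The mean of 12 fibre genes, among them Ckm, Acta1 and Tnnt3, lay between 9.51 and 9.78 in ATF4 arrays and between 9.59 and 9.74 in empty-vector arrays, while the array medians lay between 4.29 and 4.44. Atf4 itself read 6.53 ± 0.24 in ATF4 muscles and 6.34 ± 0.12 in empty-vector muscles (SD, n = 4 each), a difference of 0.18 with an adjusted p of 0.846 in limma. In experiments 1 to 4 it was 6.65, 6.56, 6.72 and 6.18 in ATF4 muscles, against 6.42, 6.24, 6.48 and 6.23 in empty-vector muscles. The differences were 0.24, 0.31, 0.24 and -0.05, so in experiment 4 the ATF4 muscle was not the higher of the pair. For that reason the right muscles are named ATF4-labelled below. The sources used here do not place the Atf4 probes relative to the sequence on the plasmid.

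Myostatin, encoded by Mstn, is a secreted TGF-beta family protein made by muscle fibres that limits muscle mass. It and the activins bind activin type II receptors, which act through the transcription factors SMAD2 and SMAD3, and follistatin, encoded by Fst, binds these ligands and blocks them. IGF-1 acts in the other direction: it binds the IGF-1 receptor, which signals through insulin receptor substrates to the kinases PI3K, AKT and mTOR and favours protein synthesis and growth.

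Because the transfected protein is a DNA-binding factor, the promoters were searched for its recognition letters. RefSeq windows (build GRCm38.p6, 250 bases before to 50 after the annotated start) were held for 9 of the 10 genes, Fst being the exception. Neither TGATGNAA, the core of the element bound by ATF4 with C/EBP proteins, nor TGACGTCA, the cyclic AMP response element, was found in any of the 9 windows on either strand. Of all 32851 windows, 3.97% hold the first and 1.79% the second. GTAAACA, a FoxO motif, and GTCTAGAC, a SMAD palindrome, were not found in the 9 windows either, and 3.65% and 0.213% of all windows hold them. The absence of these letters says nothing about sites outside the windows. The Mstn window is shown because Mstn varied most among the 8 genes. It lies on the plus strand at chr1:53061390-53061689, and capitals mark its only match to TATAAA, at position 222 counted from the 5′ end, a motif that 13.6% of all windows hold on either strand. That match overlaps no other motif searched.
Mstn: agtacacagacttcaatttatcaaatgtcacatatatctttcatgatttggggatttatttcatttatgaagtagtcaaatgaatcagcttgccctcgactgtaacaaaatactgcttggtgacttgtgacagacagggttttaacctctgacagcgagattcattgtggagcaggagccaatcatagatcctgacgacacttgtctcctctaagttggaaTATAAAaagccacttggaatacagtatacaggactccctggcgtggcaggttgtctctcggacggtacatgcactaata

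None of the 8 genes was called different in ATF4-labelled muscle. In limma with Benjamini-Hochberg adjustment over all 16755 probe sets, 0 of 8 passed an adjusted p of 0.05, and 0 of 8 had an unadjusted p under 0.05. Of all probe sets, 0.0179% passed the first threshold and 6.00% the second. The adjusted p-values of the 8 genes ran from 0.871 for Smad3 to 0.997 for Irs1. Their differences ran from -0.25 to 0.12, with 5 higher and 3 lower and a median of 0.02, which is also the median over all probe sets. Over all probe sets, 54.5% were higher. In all 8 genes the levels of the groups overlapped, where 2.16% of all probe sets do not overlap.

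**Figure D1:**
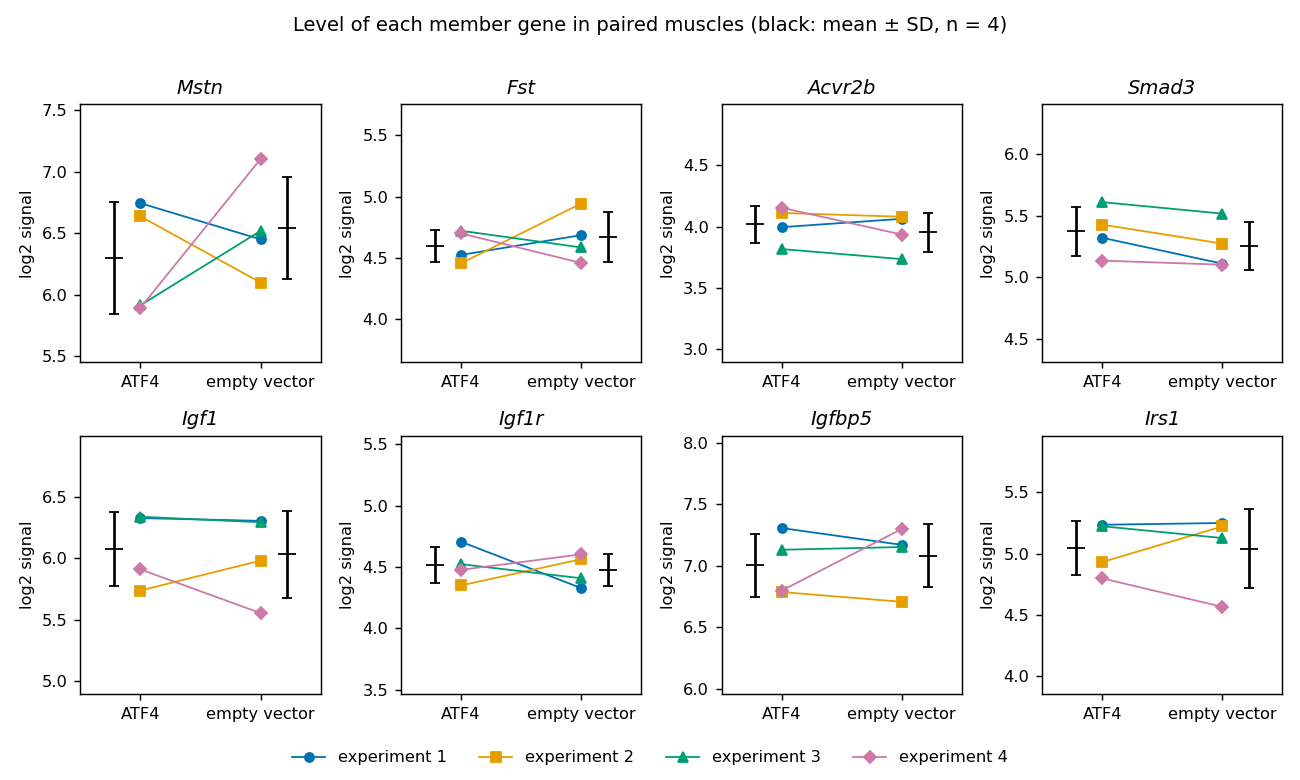
Log2 signal of each of the 8 genes in the ATF4-labelled and the empty-vector muscle of every experiment, each panel spanning the same height. Lines join the muscles of one experiment, and black bars give the mean ± SD of 4 arrays. The lines of Mstn cross, 2 higher and 2 lower on the ATF4 side, while those of Smad3 run nearly parallel.

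Mstn was higher in ATF4-labelled muscle in 2 experiments and lower in the other 2. Its level was 6.74, 6.64, 5.91 and 5.89 in the ATF4-labelled muscles of experiments 1 to 4, against 6.45, 6.10, 6.52 and 7.10 in the empty-vector muscles. The ATF4-labelled muscles thus fell into a higher and a lower pair, and the highest array of all was the empty-vector muscle of experiment 4. The difference was 0.29, 0.54, -0.61 and -1.21 in experiments 1 to 4, or 1.23-, 1.45-, 0.657- and 0.432-fold. Averaged over experiments it was -0.25 (SE 0.27, adjusted p = 0.896 in limma), and the 95% interval of the fold ran from 0.549 to 1.30. Without experiment 4 the mean difference was 0.08.

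The spread of Mstn between experiments was wide for this data set. The SD of its 4 differences was 0.81, at the 96.9th percentile of all probe sets, and the other 7 genes had SDs from 0.08 to 0.33. In experiment 4 the array of the ATF4-labelled muscle also had a narrower distribution of signals (SD 1.14 over all probe sets) than that of its partner (SD 1.31). Its median was higher, at 4.44 against 4.29. In the alternative with array weights, the arrays of experiment 4 had the lowest weight, 0.44. Those of experiments 1 to 3 had 0.90, 0.94 and 2.71. After quantile normalization, which makes the distributions of the arrays equal, the Mstn differences were 0.27, 0.49, -0.56 and -0.89. The mean of the fibre markers differed by 0.04, -0.08, -0.08 and -0.15 in experiments 1 to 4, and its part in the Mstn differences was not tested.

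Fst, the secreted inhibitor of activins and myostatin, also changed direction between experiments. It read 4.53, 4.46, 4.72 and 4.70 in the ATF4-labelled muscles, against 4.69, 4.94, 4.59 and 4.46 in the empty-vector muscles of experiments 1 to 4. The lowest and the highest arrays were the muscles of experiment 2. The differences were -0.16, -0.49, 0.14 and 0.24, so that Fst was lower where Mstn was higher, and the reverse, in each of the 4 experiments. With 4 experiments this opposition is a description of these arrays, and it was noticed after the values were seen. The mean difference was -0.07 (SE 0.15, adjusted p = 0.953 in limma), with a fold between 0.756 and 1.20 at 95% confidence, and it was 0.07 without experiment 2.

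**Figure D2:**
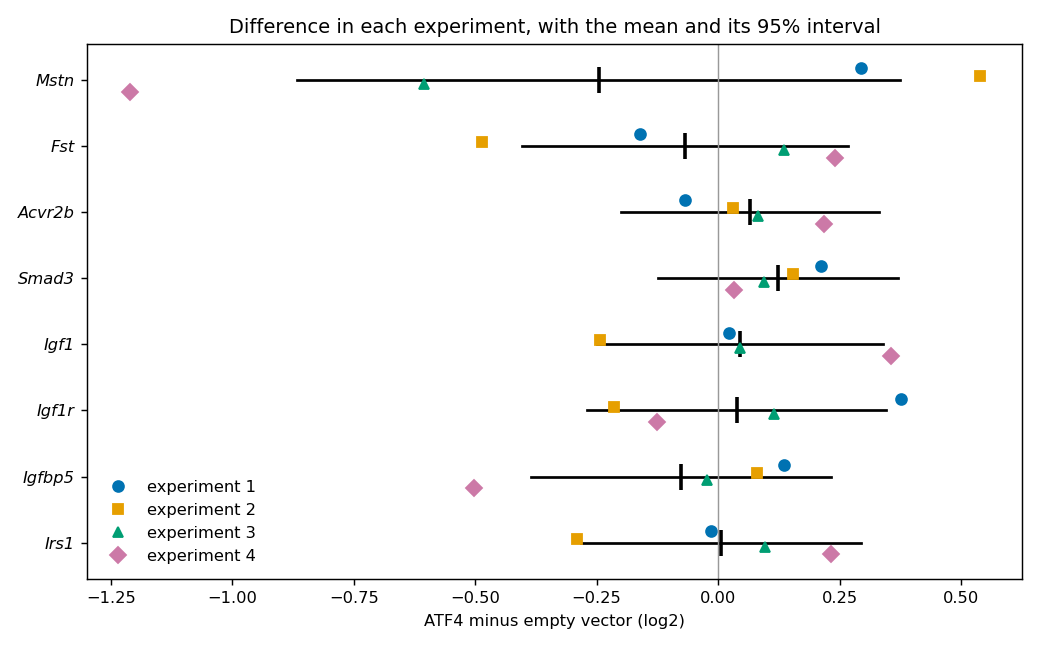
Difference between the ATF4-labelled and the empty-vector muscle (log2) for each gene. Symbols give the 4 experiments, the vertical tick their mean and the horizontal line the 95% interval from limma. All 8 intervals contain 0, and the experiments of Mstn spread from -1.21 to 0.54.

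Acvr2b, an activin type II receptor that binds myostatin, had a low and even signal. It was 3.99, 4.11, 3.82 and 4.15 in the ATF4-labelled muscles, against 4.06, 4.08, 3.73 and 3.93 in the empty-vector muscles. The muscles of experiment 3 were the lowest of both groups. The difference was 0.07 (SE 0.11, adjusted p = 0.939 in limma), higher in 3 of 4 experiments, and a rise of more than 1.26-fold or a level below 0.871-fold lies outside its 95% interval. The probe set stood at the 32.4th percentile of signal, and background was not separated from low expression here.

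Smad3, the transcription factor that carries the myostatin and activin signal to the nucleus, was slightly higher in 4 of 4 experiments. Its level was 5.32, 5.43, 5.61 and 5.14 in the ATF4-labelled muscles and 5.11, 5.27, 5.52 and 5.10 in the empty-vector muscles. In both groups the muscle of experiment 3 was the highest and that of experiment 4 the lowest. The differences of 0.21, 0.15, 0.09 and 0.03 averaged 0.12 (SE 0.11, adjusted p = 0.871 in limma), a fold of 1.09 with a 95% interval from 0.917 to 1.29. An exact permutation test over the 4 pairs, two-sided, gave p = 0.125, the smallest that 4 pairs allow, and 8.25% of all probe sets were higher in 4 of 4 experiments. The SD of the Smad3 differences, 0.08, was at the 2.85th percentile of all probe sets.

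The mean of 14 macrophage genes, like Smad3, was highest in experiment 3 and lowest in experiment 4 in both groups. Singly, 5 of the 14 genes showed this order, and the share of all probe sets that show it was not counted. The mean was 6.46, 6.50, 7.01 and 5.88 in the ATF4-labelled muscles and 6.07, 6.07, 6.99 and 6.03 in the empty-vector muscles of experiments 1 to 4. In the empty-vector muscles experiment 4 was thus only just below experiments 1 and 2. The list mean differed by 0.39, 0.43, 0.02 and -0.15. Of the 14 genes 11 were higher and 3 lower, and 0 passed an adjusted p of 0.05 in limma, with 2 at an unadjusted p under 0.05, where 6.00% of all probe sets have one. The part of these cells in the Smad3 signal was not tested. The other marker lists had medians closer to 0, against a macrophage median of 0.18. Higher were 8 of 11 satellite cell genes (median 0.09), 9 of 14 fibroblast genes (0.06) and 4 of 6 Schwann cell and nerve genes (0.08). Lower were 5 of 8 adipocyte genes (-0.09), 8 of 11 endothelial genes (-0.04) and 12 of 12 fibre genes (-0.05). Over all probe sets, 54.5% were higher. No gene of these lists passed an adjusted p of 0.05 in limma, and an unadjusted p under 0.05 was reached by 2 fibroblast, 1 satellite cell and 1 Schwann cell and nerve genes, all higher, by 2 adipocyte and 1 endothelial genes, all lower, and by 0 fibre genes.

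Igf1, the growth factor itself, differed between experiments more than between the muscles of an experiment. It read 6.33, 5.74, 6.34 and 5.91 in the ATF4-labelled muscles, against 6.30, 5.98, 6.29 and 5.55 in the empty-vector muscles. Experiments 1 and 3 were high in both muscles, and experiments 2 and 4 low in both. The difference was 0.02, -0.24, 0.05 and 0.36, on average 0.05 (SE 0.13, adjusted p = 0.967 in limma), with a fold between 0.841 and 1.27 at 95% confidence. It was -0.06 without experiment 4. Fibroblasts and macrophages also make Igf1, and the mean of 14 fibroblast genes differed by 0.11, 0.07, -0.04 and 0.26 in experiments 1 to 4. Their part in the Igf1 signal was not tested.

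Igf1r, the receptor tyrosine kinase for IGF-1, lay within a narrow range on all arrays. It was 4.71, 4.35, 4.52 and 4.48 in the ATF4-labelled muscles and 4.33, 4.56, 4.41 and 4.60 in the empty-vector muscles. The highest and the lowest ATF4-labelled values, in experiments 1 and 2, bracketed 3 of the 4 empty-vector values. The mean difference was 0.04 (SE 0.13, adjusted p = 0.975 in limma), higher in 2 of 4 experiments, with a 95% interval of the difference from -0.27 to 0.35. Without experiment 1, where the difference was 0.38, it was -0.08.

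Igfbp5, a secreted protein that binds IGFs and is abundant in muscle, read 7.31, 6.79, 7.13 and 6.80 in the ATF4-labelled muscles, against 7.17, 6.71, 7.15 and 7.30 in the empty-vector muscles. In experiments 1 to 3 the paired muscles lay close together, and experiment 4 stood apart. The differences were 0.14, 0.08, -0.02 and -0.50, with a mean of -0.08 (SE 0.13, adjusted p = 0.938 in limma) and a fold between 0.766 and 1.17 at 95% confidence. Without experiment 4 the mean was 0.06, and with quantile normalization it was 0.0075, with experiment 4 at -0.14.

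Irs1, the docking protein that links the insulin and IGF-1 receptors to PI3K, had the smallest mean difference of the 8 genes. Its level was 5.23, 4.93, 5.22 and 4.80 in the ATF4-labelled muscles, against 5.25, 5.22, 5.13 and 4.57 in the empty-vector muscles. Both muscles of experiment 4 were the lowest of their group. The differences of -0.01, -0.29, 0.10 and 0.23 averaged 0.006 (SE 0.13, adjusted p = 0.997 in limma), and a fold below 0.822 or above 1.23 lies outside the 95% interval. The mean was -0.02 without experiment 3 and -0.07 without experiment 4, and median centring gave -0.03 and quantile normalization -0.04.

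The wider pathways held 120 measured genes in 10 lists, the 8 genes above included. In limma 0 of the 120 passed an adjusted p of 0.05. At an unadjusted p under 0.05 there were 7 genes, 3 higher and 4 lower, or 5.83% of the 120. Among all probe sets 6.00% reached that level, 3.23% higher and 2.77% lower. Of the 120 genes 57 were higher and 63 lower, with a median of -0.01, against 0.02 over all probe sets, of which 54.5% were higher. In 5 of them the groups did not overlap: Igf2, Stc2, Grb10 and Rptor were higher and Fbxo32 was lower in every ATF4-labelled muscle. Of all probe sets, 1.41% were higher and 0.752% lower without overlap. In 4 of 4 experiments 14 of the 120 genes were higher and 5 lower, together 15.8%. Among all 16755 probe sets 1382 were higher and 1113 lower in 4 of 4 experiments, together 14.9%.

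**Figure D3:**
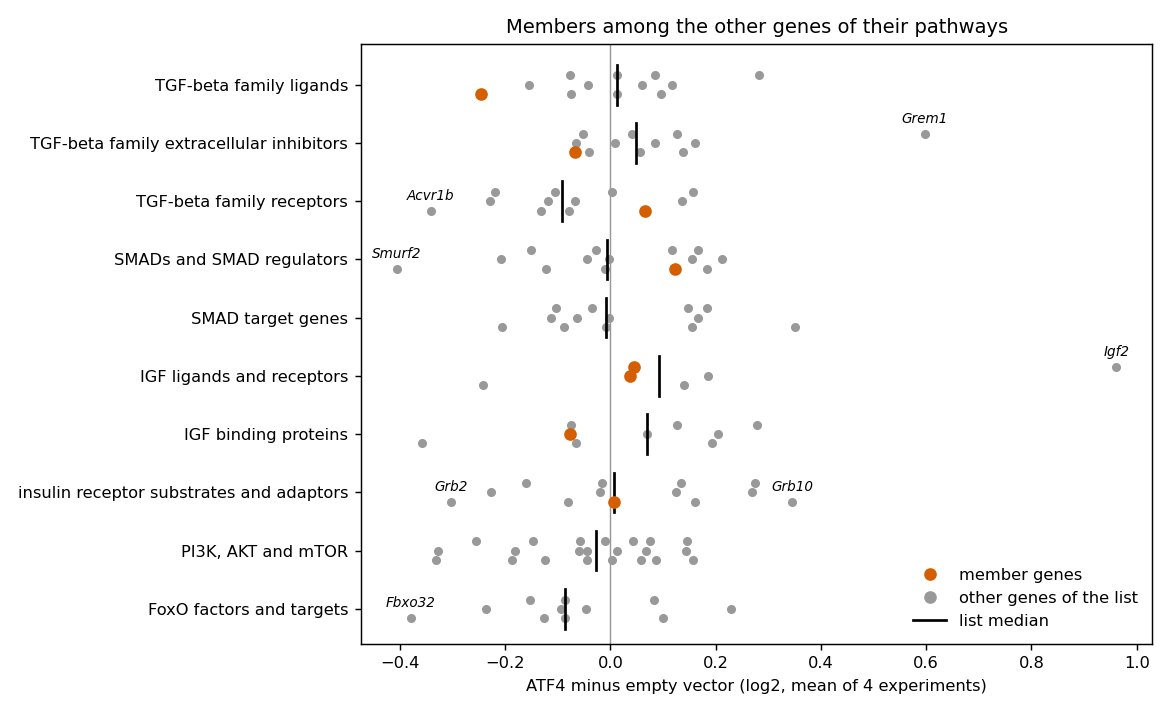
Mean difference between ATF4-labelled and empty-vector muscles (log2, 4 experiments) for the genes of 10 pathway lists. Orange points are the 8 genes named at the start, grey points the other genes, and black ticks the list medians. Igf2, at 0.96, lies farthest from 0, and the genes labelled are those with an unadjusted p under 0.05.

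The TGF-beta lists below count Mstn among the ligands, Fst among the inhibitors, Acvr2b among the receptors and Smad3 among the SMADs. Of 12 ligands 7 were higher and 5 lower (median 0.01), and 0 had an unadjusted p under 0.05 in limma. Of the 12 genes listed as extracellular inhibitors, which include Tcap, a sarcomere protein inside the fibre, 8 were higher (median 0.05). Among them Grem1, which encodes the bone morphogenetic protein antagonist gremlin, read 5.58, 5.32, 5.05 and 5.41 in the ATF4-labelled muscles, against 4.28, 5.42, 4.79 and 4.50 in the empty-vector muscles. It was higher in 3 of 4 experiments, and the differences ran from -0.09 to 1.31 around a mean of 0.60 (SE 0.22, adjusted p = 0.787 in limma), which was 0.36 without experiment 1 and 0.83 without experiment 2.

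Of 12 receptors 8 were lower (median -0.09). Acvr1b, the type I activin receptor ALK4, which myostatin also uses, read 4.09, 4.13, 4.26 and 4.89 in the ATF4-labelled muscles, against 4.73, 4.36, 4.35 and 5.29 in the empty-vector muscles. It was lower in each experiment, by a mean difference of -0.34 (SE 0.13, adjusted p = 0.789 in limma), while the groups overlapped. Of 14 SMADs and their regulators 8 were lower (median -0.0065). Smurf2, a ubiquitin ligase that marks SMADs and TGF-beta receptors for degradation, read 5.33, 5.07, 5.66 and 5.35 in the ATF4-labelled muscles, against 5.64, 5.40, 5.88 and 6.11 in the empty-vector muscles. The difference was -0.31, -0.34, -0.22 and -0.76 in experiments 1 to 4, with a mean of -0.41 (SE 0.13, adjusted p = 0.754 in limma). Of 13 genes that SMADs are known to control, 8 were lower (median -0.0075) and 0 had an unadjusted p under 0.05.

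Of 6 IGF ligands and receptors 5 were higher (median 0.09), and Igf2 had the largest difference of the 120 genes. Igf2, a growth factor of fetal life and of regenerating muscle, read 5.59, 5.62, 5.79 and 6.11 in the ATF4-labelled muscles, against 4.95, 4.77, 4.73 and 4.81 in the empty-vector muscles. All 4 ATF4-labelled values lay above all empty-vector values. The difference of 0.64, 0.85, 1.06 and 1.30 in experiments 1 to 4 averaged 0.96 (SE 0.14), a fold of 1.95 with a 95% interval from 1.57 to 2.42, and did not pass over all probe sets (adjusted p = 0.131 in limma). Over the other settings the adjusted p of Igf2 ran from 0.0206 to 0.648, and it passed with a random block for the experiments, with array weights and without the dimmest 50% of probe sets. Igf1, in the same arrays, differed by 0.05. Of the satellite cell markers, Myog, a transcription factor of differentiating myoblasts singled out after its values were seen, read 4.68, 4.77, 4.85 and 5.11 in the ATF4-labelled muscles, against 4.53, 4.50, 4.30 and 4.44 in the empty-vector muscles. It differed by 0.15, 0.27, 0.55 and 0.66 in experiments 1 to 4, with a mean of 0.41 (SE 0.13, adjusted p = 0.754 in limma) and no overlap between the groups. Of the 11 satellite cell genes 8 were higher and 3 lower on average. Myog was the only gene of the 11 with no overlap, and the only gene higher in 4 of 4 experiments. Over all probe sets, 1.41% were higher without overlap and 8.25% were higher in 4 of 4 experiments. The mean of the 11 satellite cell genes lay between 4.81 and 4.99 in the ATF4-labelled muscles and between 4.69 and 4.90 in the empty-vector muscles, and differed by -0.04, 0.09, 0.12 and 0.26. Des, a gene of this list at the 98.9th percentile of signal, raises the level of that mean. It averaged 8.14 in the ATF4-labelled and 8.18 in the empty-vector muscles. The part of satellite cells in the Igf2 signal was not tested.

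Grb10, an imprinted adaptor protein that binds and inhibits the insulin and IGF-1 receptors, was 4.99, 4.85, 4.97 and 4.98 in the ATF4-labelled muscles, against 4.56, 4.45, 4.67 and 4.73 in the empty-vector muscles. The groups did not overlap, and the difference of 0.43, 0.40, 0.30 and 0.25 averaged 0.35 (SE 0.11, adjusted p = 0.754 in limma). Grb2, the adaptor that links such receptors to RAS, was 4.61, 4.21, 4.20 and 4.40 in the ATF4-labelled muscles, against 4.67, 4.83, 4.50 and 4.64 in the empty-vector muscles. It was lower in 4 of 4 experiments, at -0.30 (SE 0.13, adjusted p = 0.823 in limma), or -0.20 without experiment 2. Of the 13 substrates and adaptors 7 were higher and 6 lower (median 0.006). Of 9 IGF binding proteins and regulators 5 were higher (median 0.07), among them Stc2, stanniocalcin 2, an inhibitor of the protease that cleaves IGF binding proteins, at 0.28 (SE 0.13, adjusted p = 0.846 in limma).

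**Figure D4:**
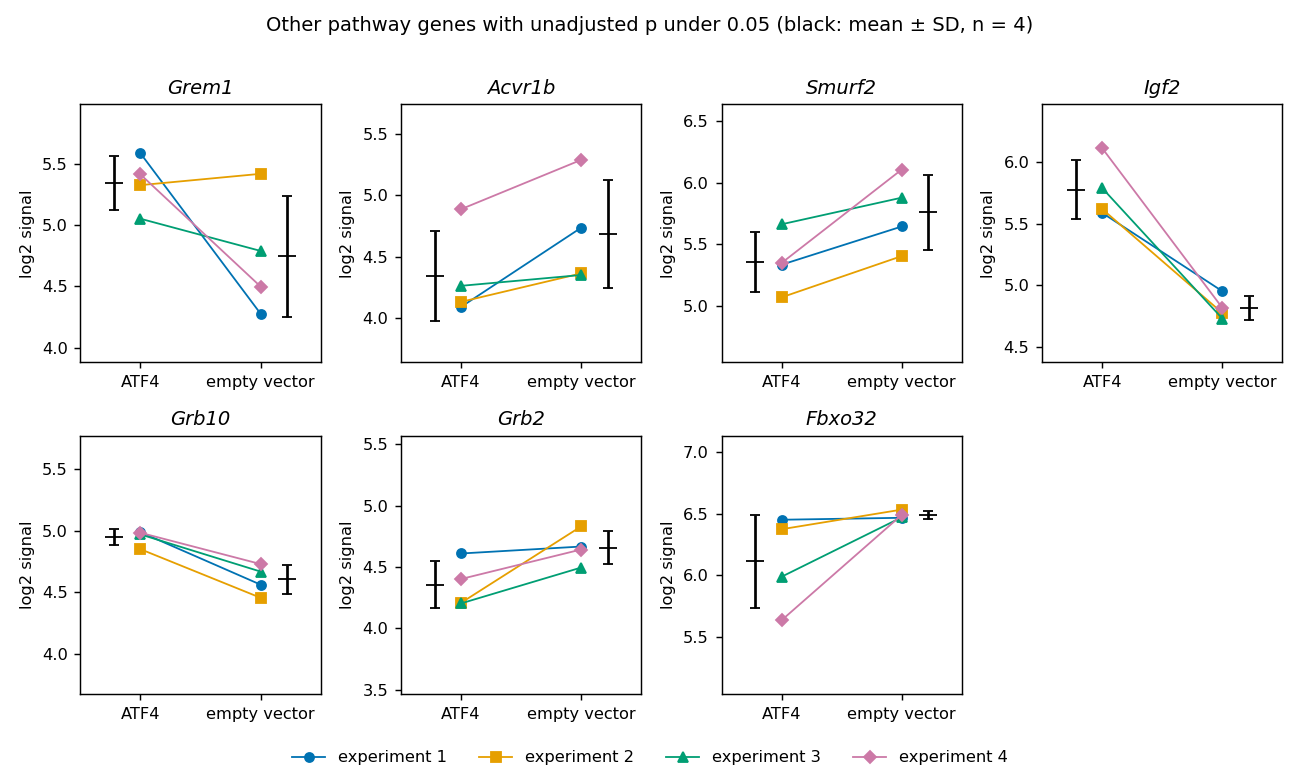
Log2 signal in the ATF4-labelled and the empty-vector muscle of every experiment for the 7 pathway genes with an unadjusted p under 0.05, each panel spanning the same height. Black bars give the mean ± SD of 4 arrays. Igf2, Grb10 and Fbxo32 have no overlap between the groups, and the Grem1 lines run in both directions.

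Downstream of the receptors no gene of PI3K, AKT and mTOR signalling had an unadjusted p under 0.05 (0 of 22 in limma, 10 higher and 12 lower, median -0.03). Rptor, the mTOR partner raptor, lay between 4.45 and 4.61 in the ATF4-labelled muscles and between 4.37 and 4.43 in the empty-vector muscles, a difference of 0.14 (SE 0.11, adjusted p = 0.857 in limma). FoxO factors, which AKT holds inactive, and their targets had 8 of 11 genes lower and a median of -0.09. Fbxo32, the ubiquitin ligase atrogin-1 and a FoxO target, was 6.45, 6.37, 5.99 and 5.63 in the ATF4-labelled muscles, against 6.47, 6.53, 6.47 and 6.49 in the empty-vector muscles. The empty-vector values lay close together, and the difference of -0.02, -0.16, -0.48 and -0.86 averaged -0.38 (SE 0.15, adjusted p = 0.816 in limma), or -0.22 without experiment 4. Foxo1, Foxo3 and Foxo4 differed by -0.09, -0.05 and -0.15, each with an adjusted p from 0.885 to 0.970 in limma.

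Over the 8 arrays, the genes most like each of the 3 members of smallest p were found by Pearson's r. The arrays share their experiments, and with 14860 genes to choose from a high r is common, so these values describe likeness only. For Smad3 they were Arrb2 (r = 0.982), Pfn1 (0.980) and Ctss (0.979), a lysosomal protease that is on the macrophage list. For Mstn they were Ndel1 (r = 0.970), Golga4 (0.946) and Rufy1 (0.927). For Igfbp5 they were Klhl24 (r = 0.996), Wdr26 (0.983) and Rida (0.975). None of these 9 genes was called different in limma, with adjusted p-values from 0.846 to 0.981.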

How the data were processed

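The data are 8 mouse exon arrays, 1 per muscle and experiment. The authors deposited log2 values made with RMA, which corrects background, normalizes arrays and summarizes probes. RMA is named per the submitters' processing notes, with no version or settings. Those notes name hg18, a human build whose role is not stated. That the scale is log2 follows from the range of the values. Labelled cDNA was made from 50 ng of amplified RNA, per the labels' protocols. Of 16755 probe sets the platform annotation gives 14996 with 1 gene, 1019 with several and 740 with none; the probe set of highest mean stood for a gene, which left 14860 genes. Entrez identifiers of the 8 genes matched the RefSeq table (GRCm38.p6). The number of arrays limits the precision.

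All probe sets were fitted with limma 3.58.1 in R 4.3.3 (statmod 1.5.0 for the random block), with the experiment as a fixed block, a variance prior following the mean level (4.96 prior and 3 residual degrees of freedom), two-sided tests and Benjamini-Hochberg adjustment at 0.05. The pairing comes from the series design, left against right muscle of the same mice; deviations of paired arrays from the mean of their group correlated at 0.07, 0.31, 0.55 and 0.05 in experiments 1 to 4. The labels do not say what separates the experiments, so p-values measure the spread between these samples, which may be technical. The members, the 10 pathway lists and the 7 marker lists were chosen with earlier results of these data known. The 10 lists hold 143 names, of which 23 lacked a probe set with 1 gene; 1 of them, Ctgf, is an older name of Ccn2, which was matched. Named were all members, and of each pathway list up to 3 genes of smallest p among those with an unadjusted p under 0.05. Stc2, Rptor, Tcap, Foxo1, Foxo3, Foxo4, Myog and Des were named after their values were seen. The alternatives were other blocks, priors, normalizations, filters, weights and thresholds, and leaving out each experiment.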

Additional observations from a re-analysis of the deposited data

Results flagged for a closer look

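Of 46 groups of 4 arrays tested for a value far from the other 3, 2 were found. The cutoff is meant to flag about 1 in 20 unrelated groups. These groups share arrays, and some share genes, so that rate is only a rough guide here. Grb10 stood at 4.85 in the ATF4-labelled muscle of experiment 2, against 4.97 to 4.99 in the other ATF4-labelled muscles. The mean of the macrophage genes stood at 6.99 in the empty-vector muscle of experiment 3, against 6.03 to 6.07 in the other empty-vector muscles. The ATF4-labelled muscle of experiment 3 was also the highest of its group, at 7.01.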

How the results depend on the processing

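The count of 0 members past the threshold was kept under all alternatives run, and so was the count of 0 members at an unadjusted p under 0.05. Of 111 member differences under other settings, 101 kept their direction and 10 reversed, all of means within 0.25 of 0 and none called. Many of the 101 could not have reversed. Changing the block or the prior, dropping dim probe sets, or averaging a gene's probe sets leaves the mean differences of these genes as they were. Directions could change only with another normalization, with array weights or with an experiment left out. The reversals were Irs1 with median centring (-0.032) and with quantile normalization (-0.035), Igfbp5 with quantile normalization (0.0075), and 7 on leaving out an experiment. Over the experiments left out, the means ran from -0.51 to 0.076 for Mstn, -0.17 to 0.072 for Fst, -0.058 to 0.14 for Igf1, -0.075 to 0.12 for Igf1r, -0.15 to 0.064 for Igfbp5 and -0.069 to 0.10 for Irs1. Acvr2b (0.01 to 0.11) and Smad3 (0.09 to 0.15) stayed positive. Dropping the dimmest 50% of probe sets removes Acvr2b, which then has no value.

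With no replicate block, 609 probe sets had an unadjusted p under 0.05 instead of 1006, and the fit without pairing changed no member's call. The number of probe sets past the adjusted threshold, 3 in the reported fit, was 13 with the replicate block as a random effect, 18 with array weights, 7 and 12 without the dimmest 25% and 50%, 7 at an adjusted p under 0.1, 0 without the trend, 0 with median centring and 0 to 2 on leaving out an experiment. Without the dimmest 50%, 588 probe sets had an unadjusted p under 0.05, of fewer tested. Of the pathway genes, 1 passed, Igf2, with the random block (adjusted p = 0.0228), without the dimmest 50% (0.0454) and with array weights (0.0206). The pathway genes at an unadjusted p under 0.05 numbered 4 to 8 on leaving out an experiment, 4 without experiment 3. The causes of these shifts were not tested. The intervals of the members bound only changes of the mean signal at 1 probe set each, and signal over background was not measured here.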
